A study of Danio rerio with 6 samples.

Results

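The Myc, Max and Mxd family was followed in the heads of 2-day-old zebrafish (Danio rerio) embryos, aged from fertilization. Its members were chosen by gene symbol, by a rule that holds no measured value, though with earlier results of these data known. The 9 listed symbols, myca, mycb, mycn, mych, mycla, myclb, max, mxd3 and mxi1, led to 9 genes of the 32520 in the count table. RNA sequencing compared 3 libraries from heads of slbp1 -/- mutants (allele rw440 by their titles) with 3 from heads of their siblings, which the labels give as wildtype. The product of slbp is the stem-loop binding protein of replication-dependent histone mRNA. The labels do not describe the lesion, the strain, the number of heads in a library or whether libraries came from separate clutches. The p-values therefore measure only how these libraries vary, and that variation may be technical. The symbol table writes several genes under upper-case names that zebrafish copies share. MYC stands for 2 genes, myca and mycb, without saying which is which, and they are told apart here by Ensembl identifier. MYCL was taken for myclb, and MYCN, MAX, MXD3 and MXI1 for the zebrafish genes of the same names.

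Myc proteins are transcription factors that bind E-box sequences as dimers with Max and raise the expression of genes for growth, ribosome assembly and cell division. Mxd proteins and Mxi1 compete for Max and recruit Sin3 corepressors to the same sites. Mycn is known for its expression in dividing neural and retinal progenitors, while Mxd proteins tend to be made as cells stop dividing, with Mxd3 an exception that is found in dividing progenitors.

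All 9 members were well covered, with between 99 and 2443 counts in a library, and all passed the filter on low counts. Libraries held 4525049, 4419886 and 5395071 counts in mutants and 3421961, 5258641 and 5155592 in siblings. Levels are given as CPM, counts per 1000000 of the TMM-scaled library, and are not adjusted for transcript length, so they are compared between groups and not between genes. On the second principal component mutant replicate 3 lay at -43.2, away from the other mutant libraries at 23.6 and 34.3, and its TMM factor of 0.788 was the smallest. The slbp transcript (ENSDARG00000100558) was 1.75-fold higher in mutants, and since the lesion is not described this does not check the genotypes.

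MYCN rose in mutant heads and MYCL fell, while the other 7 members did not pass the test. Of the 9 members 1 was called higher and 1 lower (22.2%), beside 25.7% of all 15561 genes tested, a share near the background. By direction, 12.9% of all genes were called higher and 12.8% lower. A call is an adjusted p under 0.05 from the quasi-likelihood test of edgeR, with Benjamini-Hochberg adjustment over all genes tested. Without adjustment 5 of the 9 members had a p under 0.05, beside 38.3% of all genes. The log2 fold change was above 0 for 7 members and below 0 for 2, with a median of 0.34 against 0.00 for all genes tested. Without mutant replicate 3 the median of the members was 0.18. With libraries scaled by total counts alone it was 0.068, with 5 members above 0 and 4 below, while the median of all genes moved to -0.26. The mutant and sibling libraries did not overlap for 6 members, 4 higher and 2 lower in mutants (66.7%), beside 43.6% of all genes.

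**Figure D1:**
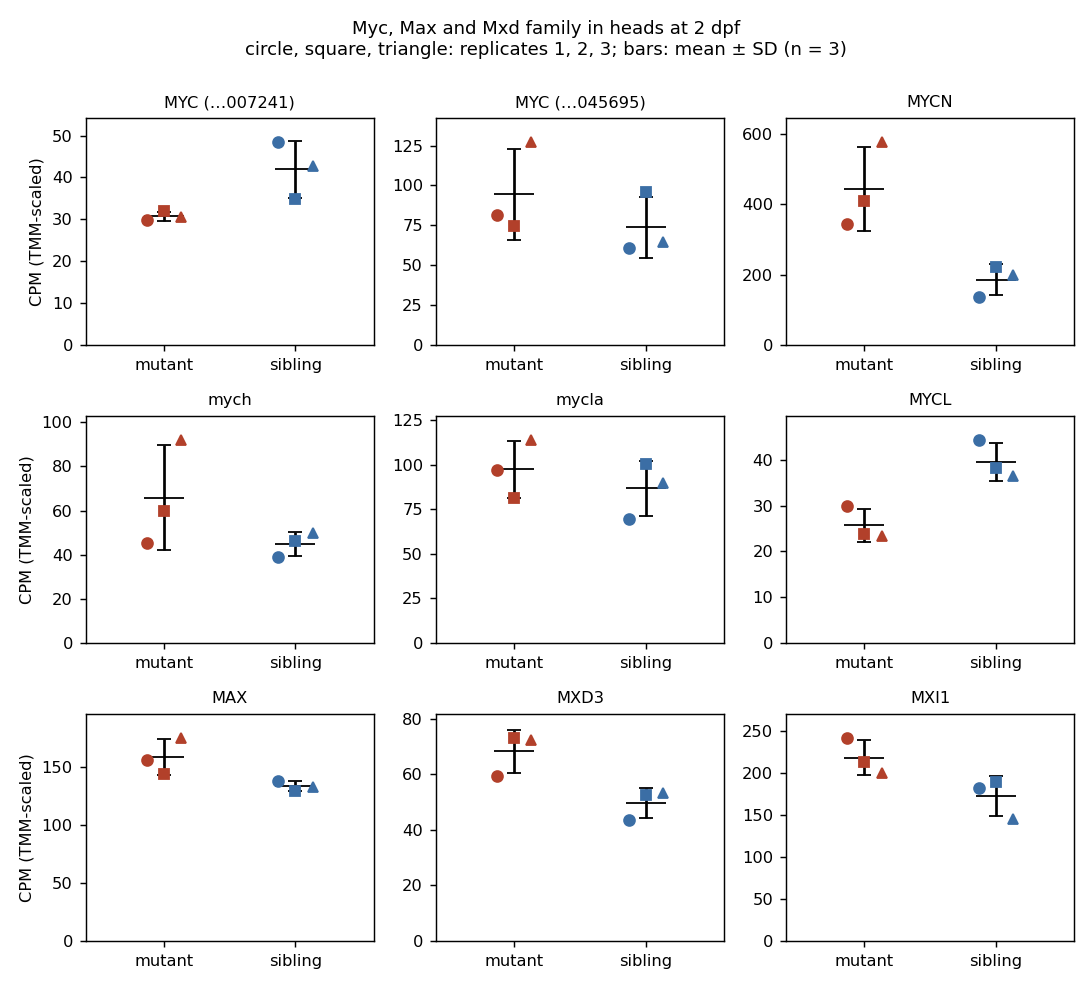
Level of each member in every library, in CPM on linear axes that start at 0, with mutants left of siblings. Symbols are libraries, horizontal ticks are group means and bars are 1 SD (n = 3). MYCN lay at 343 CPM or above in mutants and at 222 CPM or below in siblings, and MYCL was lower in each mutant library than in any sibling library.

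MYCN (ENSDARG00000006837), the N-Myc gene, had 343, 410 and 577 CPM in mutant replicates 1 to 3, against 137, 222 and 199.9 CPM in siblings. The lowest mutant library was thus well above the highest sibling library. Mutants averaged 443 ± 120.4 CPM and siblings 186 ± 43.8 CPM (SD, n = 3). The gene was 2.38-fold higher in mutants, with a 95% interval of 1.68 to 3.37, a log2 fold change of 1.25 ± 0.23 (SE) at an edgeR adjusted p of 0.00211. Only 866 of the genes tested had a larger log2 fold change. Mutant replicate 3 was the highest library and sibling replicate 1 the lowest. Without mutant replicate 3 the log2 fold change was 1.02, and without sibling replicate 1 it was 1.06, and the call held in both fits. In the RefSeq annotation of another assembly, GRCz12tu, a long noncoding RNA overlaps mycn, and the strand setting of the counting is not given, so reads of these genes cannot be told apart.

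Neither of the genes named MYC, the c-Myc copies, was called, and their values lay on opposite sides of 0. MYC (ENSDARG00000007241) had 29.9, 31.9 and 30.5 CPM in mutants, against 48.4, 34.9 and 42.8 CPM in siblings. These libraries did not overlap, but the log2 fold change of -0.45 ± 0.18 (SE) had an edgeR adjusted p of 0.0904 and was not called. The mutant libraries of this gene were close to each other, with a coefficient of variation of 3.45% against 16.2% in siblings. They held 129, 140 and 129 counts, and the difference in spread between the groups was not tested. Scaling by total counts alone put the gene at -0.72 with an edgeR adjusted p of 0.0327, while the median of all genes moved to -0.26.

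MYC (ENSDARG00000045695) had 81.5, 74.6 and 127 CPM in mutants, against 60.5, 95.7 and 64.7 CPM in siblings. The groups overlapped, since sibling replicate 2 lay above mutant replicates 1 and 2. Its log2 fold change was 0.35 ± 0.23 (SE), with an edgeR adjusted p of 0.283 and a 95% interval of -0.15 to 0.86. Without mutant replicate 3 the log2 fold change was 0.087.

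A zebrafish Myc gene named mych (ENSDARG00000077473) had 45.4, 60.0 and 91.9 CPM in mutants, against 39.1, 46.1 and 49.7 CPM in siblings. Mutant replicate 1 fell among the siblings, and mutant replicate 3 was far above all other libraries. The log2 fold change of 0.54 ± 0.23 (SE) was not called, with an edgeR adjusted p of 0.103. It was 0.23 without mutant replicate 3, and without mutant replicate 1 it was 0.74 and called, with an adjusted p of 0.0347.

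Of the L-Myc genes, MYCL fell and mycla was not called, and the difference between them was not tested. MYCL (ENSDARG00000034956) had 29.9, 23.7 and 23.4 CPM in mutants, against 44.2, 38.2 and 36.3 CPM in siblings, with no overlap. Its mean was 25.7 ± 3.66 CPM in mutant heads against 39.6 ± 4.14 CPM in sibling heads (SD, n = 3). The log2 fold change was -0.62 ± 0.19 (SE), or 1.54-fold lower in mutants, with an edgeR adjusted p of 0.0285. That call rested on the full set of libraries. It held without mutant replicate 1 (adjusted p = 0.03) and was lost without mutant replicate 2 (0.0744), mutant replicate 3 (0.0631), sibling replicate 1 (0.105), sibling replicate 2 (0.0663) or sibling replicate 3 (0.0522), at log2 fold changes of -0.69 to -0.55. A long noncoding RNA overlaps myclb in GRCz12tu, with the same limit as for mycn.

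The other L-Myc copy, mycla (ENSDARG00000006003), had 97.05, 81.7 and 114 CPM in mutants, against 69.9, 100.7 and 89.7 CPM in siblings. The groups overlapped, and the log2 fold change of 0.17 ± 0.18 (SE) had an edgeR adjusted p of 0.541. Its 95% interval of -0.23 to 0.56 leaves room for a change in either direction, and the sign turned to -0.11 with total counts alone. In GRCz12tu this gene overlaps mfsd2aa, a copy of the lipid transporter gene MFSD2A. The table holds 2 genes named MFSD2A, neither of them called, with mutant means of 4.62 and 17.02 CPM and sibling means of 4.43 and 26.9 CPM.

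**Figure D2:**
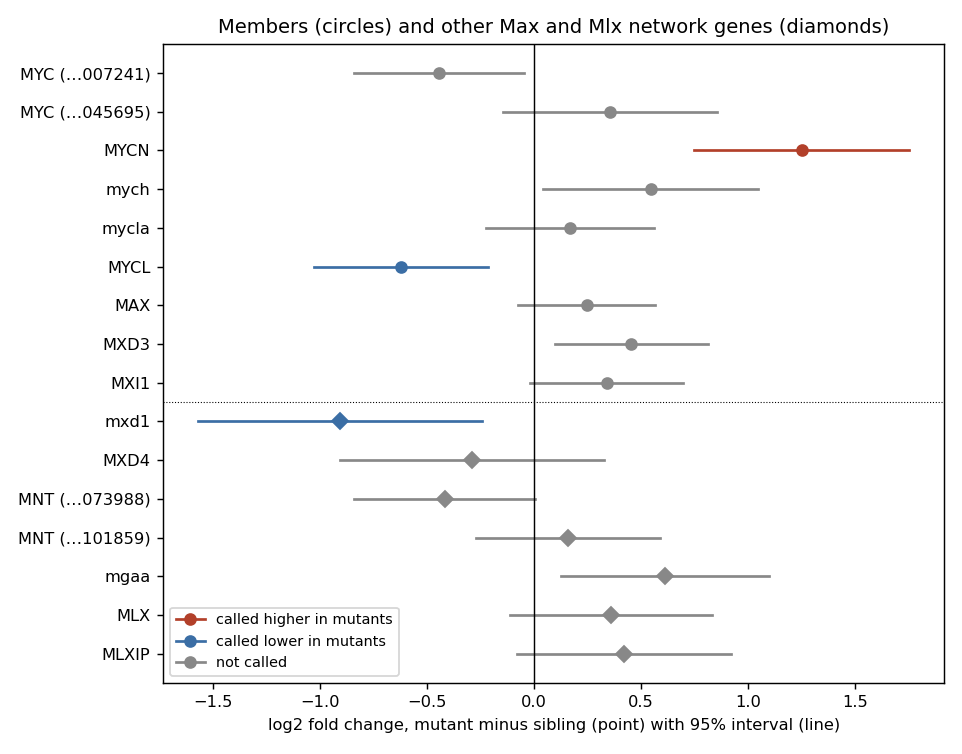
Log2 fold changes, mutant minus sibling, of the 9 members (circles) and of 7 other tested genes of the Max and Mlx network (diamonds), with 95% intervals as lines. MYCN was called higher at 1.25, and MYCL at -0.62 and mxd1 at -0.91 were called lower.

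The shared partner MAX (ENSDARG00000024844) was not called. It had 156, 144 and 174 CPM in mutants, against 138, 129 and 132 CPM in siblings. Each mutant library lay above every sibling library, by a small margin. The log2 fold change was 0.25 ± 0.15 (SE), with a 95% interval of -0.074 to 0.57 at an edgeR adjusted p of 0.243, and it turned to -0.031 with total counts alone.

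Both antagonists had higher means in mutants and neither was called. MXD3 (ENSDARG00000098350), which encodes a Max partner that represses E-box genes, had 59.3, 73.0 and 72.5 CPM in mutants, against 43.5, 52.6 and 53.1 CPM in siblings. The groups did not overlap. Its log2 fold change was 0.45 ± 0.17 (SE), with an edgeR adjusted p of 0.0613, and was 0.19 with total counts alone. In the gene order of GRCz12tu mxd3 lies 37 genes from slbp on the same chromosome, and none of the other members lies on that chromosome. Alleles linked to the mutation and the mutation itself cannot be told apart for such a gene. Of 44 tested genes matched by symbol among the 100 nearest on each side of slbp, 6 were called higher and 7 lower (29.5%), near the 25.7% called among all genes.

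MXI1 (ENSDARG00000040884), an Mxd-type repressor gene, had 241, 212 and 200.03 CPM in mutants, against 182, 189 and 145 CPM in siblings. The lowest mutant library lay just above the highest sibling library. The log2 fold change of 0.34 ± 0.17 (SE) had an edgeR adjusted p of 0.150, and it dropped to 0.084 with total counts alone.

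A view that does not depend on library scaling sets each member's counts beside those of MAX in the same library. This comparison was added after the values were seen and has no test. MYCN had 220.1, 286 and 331 counts per 100 MAX counts in mutants, against 99.6, 171 and 151 in siblings. MYCL had 19.2, 16.5 and 13.4 in mutants, against 32.1, 29.5 and 27.4 in siblings, and MYC (ENSDARG00000007241) had 19.2, 22.2 and 17.5 in mutants against 35.1, 26.9 and 32.3 in siblings. For these 3 of 8 members the groups did not overlap, beside 43.9% of all genes set against MAX in this way, of which 12.8% were higher and 31% lower in mutants. MXD3 had 38.04, 50.8 and 41.5 counts per 100 MAX counts in mutants and 31.5, 40.6 and 40.1 in siblings, and so overlapped on this scale. MXI1 overlapped as well, at means of 139 ± 21.3 in mutants and 129 ± 18.4 in siblings (SD, n = 3), as did mych, mycla and MYC (ENSDARG00000045695).

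**Figure D3:**
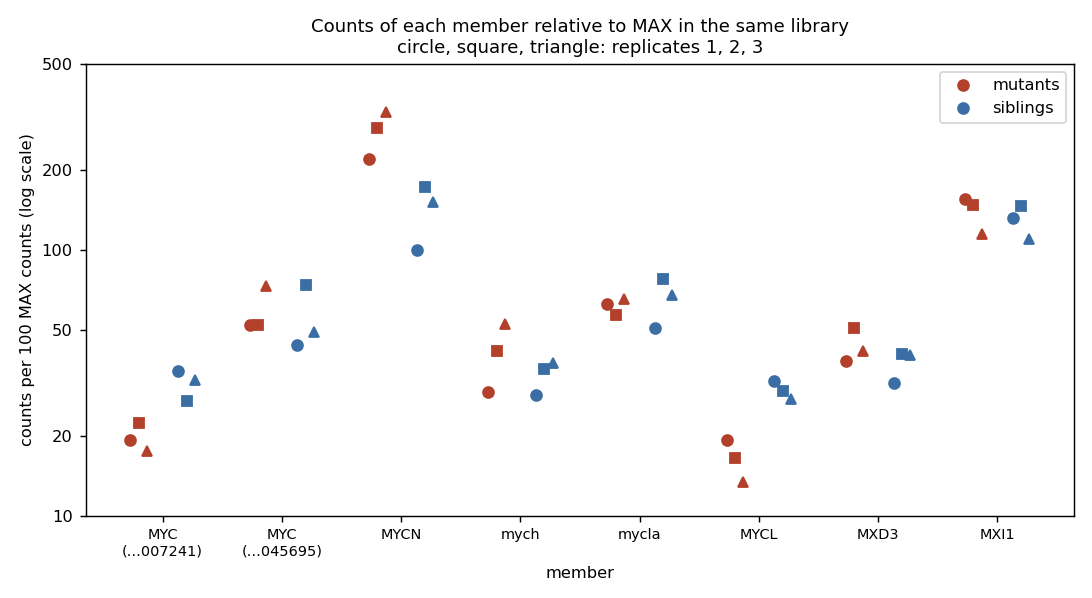
Counts of each member per 100 counts of MAX in the same library, on a log axis, with mutants left of siblings for each gene and 1 symbol per library. MYCN was higher in mutants, at 220.1 or above against 171 or below, and MYCL and the MYC gene ending in 007241 were lower. The other 5 members overlapped.

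Count ratios between other pairs of members, also chosen after the values were seen, are given without a test. There were 1148, 1730 and 2468 counts of MYCN per 100 counts of MYCL in mutant replicates 1 to 3, against 311, 581 and 550.0 in siblings. The groups did not overlap, with a difference in mean log2 ratio of 1.88. MYCN was the member called higher and MYCL the one called lower, so the choice of this pair fixed that separation. For MYCN against MXI1 the values were 142, 193 and 288 in mutants and 75.4, 117 and 138 in siblings, so that mutant replicate 1 was only just above sibling replicate 3. MXD3 counts per 100 of MXI1 were 24.6, 34.4 and 36.2 in mutants and 23.9, 27.8 and 36.6 in siblings, which overlapped. The MYC genes, ENSDARG00000045695 over ENSDARG00000007241, gave 273, 234 and 417 counts per 100 in mutants and 125, 275 and 151 in siblings, which also overlapped. For mycla over MYCL they were 325, 344 and 487 in mutants and 158, 264 and 247 in siblings, without overlap. The share of all gene pairs whose ratios do not overlap was not computed, so these ratios have no background beside them.

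The 2 tested genes with the profile most like that of MYCN over the 6 libraries were CCNB2, a mitotic cyclin gene, and olig4, an oligodendrocyte transcription factor family gene. Likeness was the Euclidean distance between log2 CPM profiles centred on their mean, among genes with at least 0.5 of the member's log2 fold change in size. Their distances were 0.17 and 0.21. CCNB2 had 21.8, 30.1 and 42.5 CPM in mutants, against 9.57, 15.7 and 14.4 CPM in siblings. For MYCL the nearest genes were znf740a, a zinc finger gene by its name, and RIOK3, a RIO family kinase gene, at distances of 0.023 and 0.12. The choice by likeness fixed the direction of these 4 genes. CCNB2 and olig4 were called in all alternatives run, whereas the calls of znf740a and RIOK3 were lost without mutant replicates 2 or 3 or sibling replicates 1 or 2, at adjusted p of 0.0514 to 0.0905.

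Among the other genes of the Max and Mlx network, mxd1 was called lower by edgeR, and 0 genes were called higher by edgeR, DESeq2 or limma-voom. At an unadjusted p under 0.05 by edgeR, 1 gene was higher and 1 lower, beside 38.3% of all genes. Of 8 genes 7 were tested. The 14.3% called lower was near the 12.8% of all genes. Their median of 0.16 on the log2 scale was not stable, at 0.26 without mutant replicate 3 or sibling replicate 2, 0.018 without mutant replicate 2, 0.037 without sibling replicate 1, -0.087 with total counts alone and -0.074 without a filter on low counts. The Mxd family gene mxd1 (ENSDARG00000032039) had 5.33, 8.44 and 5.20 CPM in mutants, against 14.2, 10.1 and 11.4 CPM in siblings. All mutant libraries were below all sibling libraries. Its log2 fold change was -0.91 ± 0.31 (SE), with an edgeR adjusted p of 0.0456. The call was lost with DESeq2 (adjusted p = 0.0594). It was also lost without mutant replicate 1 (0.133), mutant replicate 3 (0.108) or sibling replicates 1, 2 or 3 (0.151, 0.0648 and 0.094). At 22 to 66 counts in a library it was the least covered tested gene of the network.

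The MNT genes, which encode a broadly made Max-binding repressor, were not called. MNT (ENSDARG00000073988) had 24.1, 24.9 and 19.6 CPM in mutants against 27.7, 30.8 and 33.1 CPM in siblings, without overlap (edgeR adjusted p = 0.133). MNT (ENSDARG00000101859) had means of 34.7 ± 5.65 CPM in mutants against 31.0 ± 4.89 CPM in siblings (SD, n = 3). MXD4 had means of 10.7 ± 2.84 CPM in mutant heads against 13.1 ± 2.72 CPM in sibling heads. For mgaa, a copy of the gene of the Max-binding protein Mga, the means were 72.7 ± 18.9 CPM in mutants and 47.3 ± 11.6 CPM among siblings (edgeR adjusted p = 0.0613). It was called without mutant replicate 1 (0.0383), without a filter on low counts (0.0322) and with a replicate block in the fit (0.00454).

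On the Mlx side, which responds to glucose metabolites, MLX had means of 21.2 ± 2.21 CPM in mutant heads against 16.5 ± 1.35 CPM in sibling heads (SD, n = 3) and did not overlap, and MLXIP had 49.2 ± 11.7 CPM in mutants against 36.6 ± 9.96 CPM in siblings. Neither was called. The glucose-responsive factor gene mlxipl had 2 counts in sibling replicate 3 and 0 in the other libraries, below the floor of 3 counts.

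Cofactor genes of Myc and Mxd proteins were mostly not called. Of 25 tested, 2 were called higher and 3 lower (8% and 12%, beside 12.9% and 12.8% of all genes), with a median of 0.17. That median was 0.27 without mutant replicate 2, 0.12 without mutant replicate 3 and -0.10 with total counts alone. The Sin3 corepressor gene SIN3B had 154 ± 14.6 CPM in mutant heads against 112 ± 11.8 CPM in sibling heads (SD, n = 3), a log2 fold change of 0.45 with an edgeR adjusted p of 0.0475. The call was lost without any 1 library, at adjusted p from 0.0571 to 0.164, and with upper quartile factors, total counts alone, DESeq2 or either other filter on low counts. PCGF6, a subunit of the Polycomb-type complex that holds Mga and Max, had 12.3 ± 0.471 CPM in mutant heads against 6.37 ± 1.04 CPM in sibling heads, and its call was lost without any 1 library except mutant replicate 3, and with total counts alone.

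The genes called lower were KAT2B, a histone acetyltransferase gene, at a log2 fold change of -1.66, and both copies of BIN1, which encodes a membrane-curving protein that can bind Myc. BIN1 (ENSDARG00000042114) changed by -1.55 and BIN1 (ENSDARG00000058820) by -1.76. These 3 genes had means between 1.46 and 3.002 CPM in mutants and between 4.98 and 8.96 CPM in siblings, near the depth limit. Without sibling replicate 1 none of them (0) was called, at adjusted p of 0.07 for KAT2B and 0.0807 and 0.15 for the BIN1 genes. The call of BIN1 (ENSDARG00000058820) was lost without any 1 library except mutant replicate 2. Without mutant replicate 1 the other BIN1 gene was also lost (0.0599), and without sibling replicate 3 so was KAT2B (0.0678). KAT2A, TRRAP, RUVBL1, RUVBL2 and HDAC1 had log2 fold changes between 0.04 and 0.48 and were not called.

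Of 13 tested genes for Myc protein turnover and stability, 4 rose and 0 fell (30.8%, beside 12.9% called higher among all genes), with a median of 0.23. The sign of that median turned to -0.069 without mutant replicate 3, -0.053 with limma-voom and -0.12 with total counts alone, and the median was 0.071 without mutant replicate 2 and 0.11 without sibling replicate 2. DESeq2 and limma-voom also called 0 lower, and 0 were lower at an unadjusted p under 0.05 by edgeR, but 1 was called lower without mutant replicate 2. SKP2, an F-box gene of a ubiquitin ligase that acts on Myc and on cell cycle inhibitors, had 69.9 ± 14.3 CPM in mutant heads against 23.9 ± 2.92 CPM in sibling heads (SD, n = 3), a log2 fold change of 1.55 ± 0.20 (SE). The mitotic kinase gene aurka, whose product stabilises N-Myc, had 119 ± 10.9 CPM in mutants against 66.8 ± 8.38 CPM in siblings, and cip2a, which encodes an inhibitor of the phosphatase that destabilises Myc, had 52.1 ± 9.98 CPM in mutants against 24.4 ± 4.90 CPM in siblings. FBXW7, the F-box gene for the degradation of phosphorylated Myc, averaged 34.0 CPM in mutants against 39.0 CPM in siblings and was not called, with a log2 fold change of -0.20.

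Of 34 textbook Myc targets for growth and metabolism, 16 rose and 1 fell (47.1% and 2.94%, beside 12.9% and 12.8% of all genes), with a median of 0.55. Without sibling replicate 3, and likewise with total counts alone, 9 of them were called higher, and total counts alone gave a median of 0.28. Calls higher among all genes dropped as well, from 2015 to 1458 and 1095, and total counts alone put the median of all genes at -0.26. ODC1, the ornithine decarboxylase gene of polyamine synthesis, had 577 ± 199.6 CPM in mutant heads against 188 ± 20.6 CPM in sibling heads (SD, n = 3). Its log2 fold change was 1.62 ± 0.24 (SE). The phosphatase gene cdc25b changed by 1.26, the serine and one-carbon gene SHMT1 by 1.39 and RCC1, the exchange factor gene of Ran, by 1.05. The faller was SMS, the spermine synthase gene, with 21.6 ± 3.07 CPM in mutant heads against 39.9 ± 3.74 CPM in sibling heads. SRM, for the step before it, averaged 22.2 CPM in mutants against 21.6 CPM in siblings, and LDHA 84.4 CPM in mutants against 92.4 CPM in siblings, neither called.

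Nucleolar and ribosome assembly targets were called higher in 13 of 35 and lower in 0 (37.1%, beside 12.9% called higher among all genes), with a median of 0.50. The count of 13 dropped to 5 without sibling replicate 3, to 8 without sibling replicate 1 or mutant replicate 1, and to 6 with total counts alone, at a median of 0.23. In this list 0 genes were lower by DESeq2, by limma-voom or at an unadjusted p under 0.05 by edgeR, at which 22 were higher. The fibrillarin gene FBL had 346 ± 70.6 CPM in mutant heads against 182 ± 24.9 CPM in sibling heads (SD, n = 3). GAR1 and DKC1, of the pseudouridylation particle, changed by 0.90 and 0.86 on the log2 scale, and POLR1A, the large subunit gene of RNA polymerase I, by 0.82. The nucleolin gene ncl averaged 2036 CPM in mutants against 1303 CPM in siblings and was not called (edgeR adjusted p = 0.0639). Counts of calls in these lists moved with the libraries used, as did those over all genes. The network, cofactor, turnover, growth target and nucleolar target lists held 7, 25, 13, 34 and 35 tested genes. Together 35 were called higher and 5 lower, beside 2015 and 1989 of all 15561 genes. Without sibling replicate 1 these counts were 22 and 1, beside 1363 and 1158 over all genes. Without sibling replicate 3 they were 18 and 2, beside 1458 and 1439. Without mutant replicate 3 they were 28 and 3, beside 1755 and 1646. Without mutant replicate 1 they were 25 and 2, beside 1612 and 1601. Without sibling replicate 2 they were 30 and 3, beside 1598 and 1512. With total counts alone they were 18 and 6, beside 1095 and 2787.

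**Figure D4:**
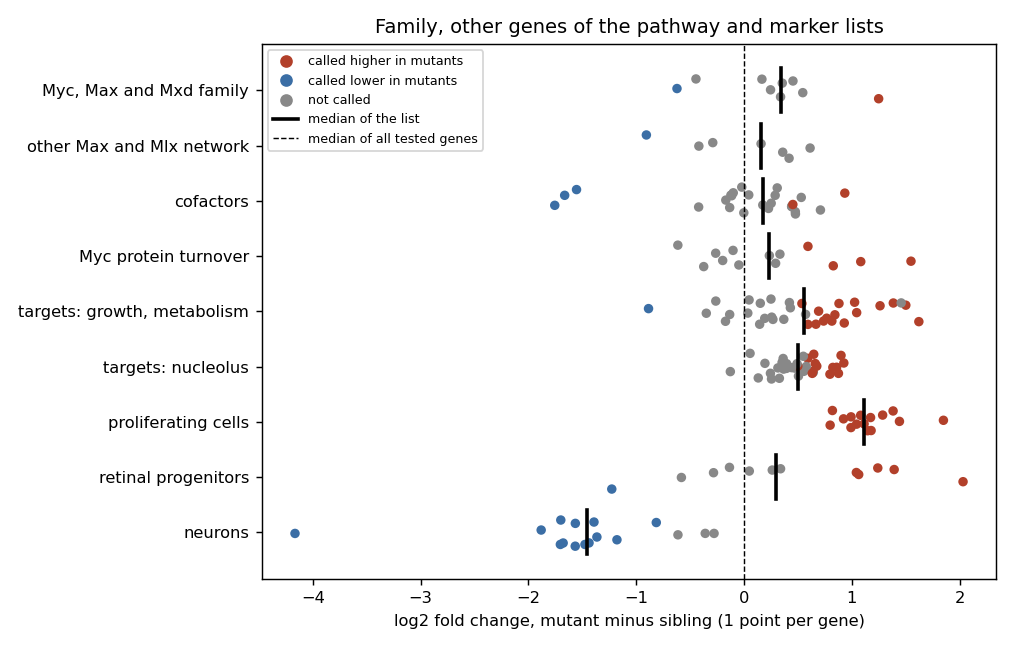
Log2 fold change, mutant minus sibling, of each tested gene of the family, of the other pathway lists and of 3 marker lists, with the list median as a thick line and the median of all tested genes as a dashed line. The medians of the target lists lay at 0.55 and 0.50, that of proliferating cells at 1.11 and that of neurons at -1.46.

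Markers of proliferating cells rose, as did MYCN, while retinal progenitor genes went both ways and neuronal genes fell. All 15 proliferation markers were called higher (100%, beside 12.9% of all genes), the median log2 fold change being 1.11. Their summed level was 7602 to 9034 CPM in mutants and 2919 to 4093 CPM in siblings. PCNA, the sliding clamp gene of replication, had 1103 ± 266 CPM in mutant heads against 306 ± 47.6 CPM in sibling heads (SD, n = 3), and CDK1 had 159 ± 22.2 CPM in mutants against 73.5 ± 9.12 CPM in siblings. Of 12 retinal progenitor genes 5 rose and 1 fell (41.7% and 8.33%, beside 12.9% and 12.8% of all genes). The list summed to 1522 to 1902 CPM in mutants and 869.6 to 1063 CPM in siblings. Of 16 tested neuronal genes 13 fell (81.2%, beside 12.8% called lower among all genes). The neuronal list summed to 1433 to 2379 CPM in mutants and 3398 to 4506 CPM in siblings. No gene of these lists was at 0 in every library. The part of cell composition in the MYCN and MYCL values was not tested, and in whole heads a change in the number of cells that express a gene and a change in its RNA per cell cannot be told apart.

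Markers of other cell types were lower or not called. Calls lower took 75% of the tested genes in the photoreceptor, muscle and neural crest lists, beside 12.8% of all genes. Photoreceptor genes fell in 9 of 12 tested, summing to 89.7 to 111 CPM in mutants against 786 to 999.8 CPM in siblings. That count was 6 without mutant replicates 1 or 2 or sibling replicate 1, and 7 without sibling replicate 3. It was 10 without mutant replicate 3 or with total counts alone. Muscle genes fell in 6 of 8, summing to 37.1 to 76.2 CPM in mutants against 139 to 239 CPM in siblings. Neural crest and cartilage genes fell in 9 of 12, summing to 691 to 1088 CPM in mutants against 2301 to 2831 CPM in siblings. The neural crest count was 7 without mutant replicate 1 or sibling replicates 1 or 3. With 1 library left out, calls lower over all genes also dropped, from 1989 to between 1158 and 1811. None (0) of 5 tested blood genes was called by edgeR, DESeq2 or limma-voom, or had an unadjusted p under 0.05 by edgeR (0 genes). The replicate block called 1 blood gene higher, and 1 was called lower without mutant replicate 2, where the median was -0.025. The blood list summed to 301 to 1481 CPM in mutants and 562 to 877 CPM in siblings.

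**Figure D5:**
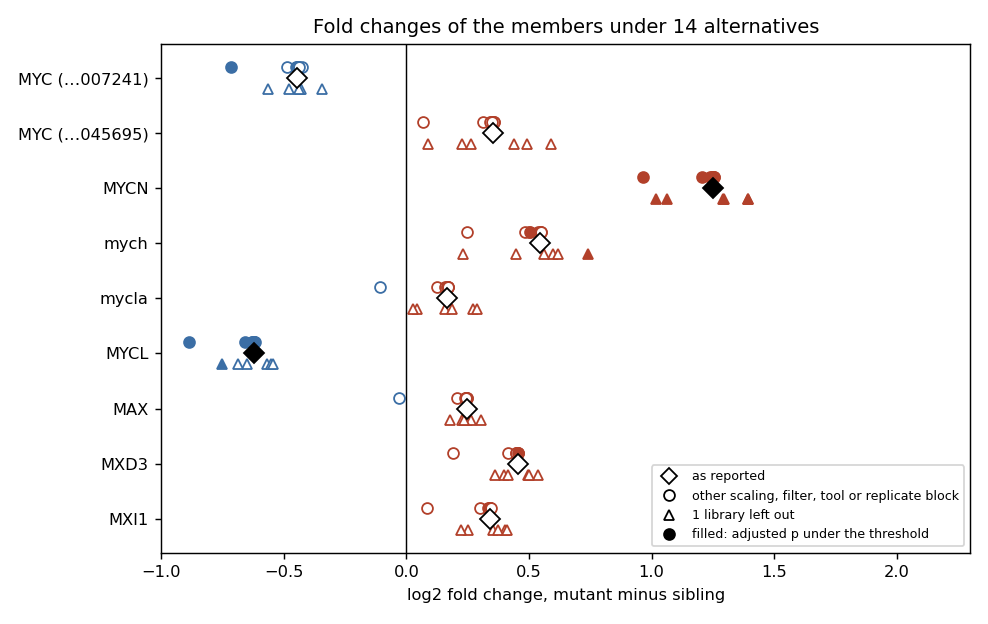
Log2 fold change, mutant minus sibling, of each member as reported (diamonds), under other scalings, filters, tools or the replicate block (circles) and with 1 library left out (triangles), filled where the adjusted p was under 0.05. MYCN was called in all 14 alternatives, at 0.96 to 1.39, and MYCL in 9 of them, at -0.89 to -0.55.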

How the data were processed

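The single deposited table holds each library's unnormalised count for every Ensembl gene, as whole numbers. HISAT2, featureCounts and the build GRCz11 are named in the submitters' processing notes; not given in the sources used here are their versions, the annotation release, the strand setting and how multi-mapping reads were treated. Copies of a gene may share reads. A reference table gave symbols for 89.8% of genes. Genes were kept by filterByExpr, scaled by TMM and tested in R 4.3.3 with edgeR 4.0.16 (quasi-likelihood, robust, two-sided, Benjamini-Hochberg threshold 0.05). Intervals are 95%. Replicates of a group differed by more than sampling noise (chi-square per degree of freedom of 6.34 to 17.6). The members and gene lists were chosen with earlier results of these data known. Genes named are slbp, all members, the Max and Mlx network, up to 4 called genes per direction by lowest p in each other list, and the 2 genes most like each called member. Not all genes the rule takes for the marker lists are described. KAT2A, TRRAP, RUVBL1, RUVBL2, HDAC1, FBXW7, SRM, LDHA, ncl and the MFSD2A genes were chosen after their values were seen. In simulated counts of 15155 genes, calls were made for 43 of 98 that changed 2-fold and 88 of 97 that changed 4-fold, and 13 calls were false. The share of genes changed there was far below the 25.7% called in the data, so these rates need not hold for this comparison. Alternatives were 3 other scalings, 2 filters, DESeq2 1.42.0, limma-voom (limma 3.58.1), a replicate block and leaving out each library. Gene order and overlaps came from the positions in the RefSeq table of GRCz12tu, none of which is printed since the builds differ. Sequences were not used here.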

Additional observations from a re-analysis of the deposited data

How the results depend on the processing

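MYCN kept its direction and its call in all 14 alternatives, with log2 fold changes of 0.96 to 1.39. With 1 library left out, members called numbered 1 to 3 (1 to 2 higher, 0 to 1 lower), MYCL lay at -0.75 to -0.55, mych at 0.23 to 0.74, other pathway genes called at 20 to 45 (18 to 38 higher, 1 to 7 lower) and all genes called at 2521 to 3763 (1363 to 1952 higher, 1158 to 1811 lower); the lowest count over all genes came without sibling replicate 1. Total counts alone moved the median of all genes to -0.26. That scaling called 1095 genes higher and 2787 lower, against 2015 and 1989 in the reported fit. It called 2 members lower and 24 pathway genes (18 higher). It also put MYC (ENSDARG00000007241) at -0.72 with a call, and reversed uncalled values of mycla (-0.11), MAX (-0.031) and MNT (ENSDARG00000101859, -0.087). Counted relative to MAX, an alternative added after seeing the data, MYC (ENSDARG00000007241) was at -0.68, mycla at -0.07, MYCL at -0.87, MXD3 at 0.21 and MXI1 at 0.10, which shifts each value by the change in MAX itself. The labels state no pairing; same-numbered libraries had residual correlations of 0.24, 0.09 and 0.18, each the highest for its mutant library. The replicate block called 4 members (3 higher), adding mych at 0.51 and MXD3 at 0.46. Calls over all genes also rose, to 5059 (2491 higher, 2568 lower) from 4004 in the reported fit. The block also called mgaa of the network (edgeR adjusted p = 0.00454) and turned the median of the turnover genes to -0.053. Except where a cause is given, the cause was not tested. Of 49 called genes named outside the family, 10 were not called under at least 1 alternative, and 0 of them reversed. Depth limits genes near 0.519 to 0.776 CPM, the value of 3 counts in a library, and covers counting error only.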
